A study of Homo sapiens with 30 samples.

Results

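The regions described here are the autosomal peaks of H3K27me3 and H3K9me3 that sat at the promoters of protein-coding genes. A peak was taken when its summit, the base with the highest signal, lay within 1 kb of the annotated start site of a protein-coding gene on chromosomes 1 to 22. Over the 5 peak lists of the series 5513 of 431864 peaks met this rule, and 325929 autosomal peaks did not. They belonged to 2444 of the 19229 autosomal protein-coding genes. The cells were HEK293T, an embryonic kidney line of human origin made to express SV40 large T antigen, and every group was transfected with antisense oligonucleotides (ASOs) and kept for 48 h. H3K27me3 was mapped after a control ASO (NC) and after ASOs against the long noncoding RNAs LINC00641 (ΔLINC00641) and SETD5-AS1 (ΔSETD5-AS1), and H3K9me3 after NC and after ASOs against LINC00662 (ΔLINC00662). The track headers name ASO2 for LINC00641, ASO1 for SETD5-AS1 and a mix of ASOs for LINC00662. Each group had 3 ChIP and 3 input libraries, 30 libraries in all, and the 3 replicates were merged before peaks were called, so each group is 1 peak list with no replicate error. No test between groups was therefore possible, intervals below cover counting error only, and the identity of the cells could not be checked from chromatin marks. ASO knockdown was transient in 1 cell line, and the RNA levels of the targets are not analysed here.

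H3K27me3 is written by Polycomb repressive complex 2 and is known for covering CpG-rich promoters of developmental and lineage genes that a cell type does not use. H3K9me3 is written by SUV39H and SETDB1 enzymes, is bound by HP1 proteins, and is known for repeats, zinc finger gene clusters and other gene clusters of repeated structure. Antisense oligonucleotides direct RNase H or block their target RNA, and are used to deplete nuclear noncoding RNAs.

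In NC cells 1287 of 73667 autosomal H3K27me3 peaks were promoter peaks, a share of 1.75% (95% Wilson interval 1.65 to 1.84%), and they belonged to 1097 genes, or 5.7% of all. For H3K9me3 in NC 871 of 75538 autosomal peaks, 1.15% (1.08 to 1.23%), belonged to 839 genes, or 4.36%. The knockdown lists held 1391 promoter peaks of 1190 genes (6.19%) for ΔLINC00641, 1229 peaks of 1065 genes (5.54%) for ΔSETD5-AS1 and 735 peaks of 699 genes (3.64%) for ΔLINC00662. Wilson intervals treat peaks or genes as independent, although 28 to 51 promoter peaks in a list served 2 or more genes, so they are too narrow. A gene had 3 promoter peaks at most.

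Below are 200 bases centred on the NC summit of the strongest peak for each of 4 gene groups marked by H3K27me3 and 3 marked by H3K9me3, leaving out windows that touched an untranslated exon, to show the sequence under leading peaks. The summits lay 279 to 889 bp from the start sites on either side, and the windows of both marks overlapped in GC content and CpG number. They are read from the GRCh37 reference (hg19 coordinates), 5′ to 3′ on the strand of the gene, with CpG dinucleotides in capitals. GRIK3, a kainate glutamate receptor subunit, is at chr1:37500738-37500937 on the minus strand, upstream of the gene, and its window held 10 CpGs at 66% GC. WNT3A, a secreted WNT ligand, is at chr1:228194003-228194202 on the plus strand, upstream of the gene, with 16 CpGs. OR1N1, an olfactory receptor, is at chr9:125289024-125289223 on the minus strand in its coding exon, with 5 CpGs at 53.5% GC. SPRR2A, a small proline-rich protein of the epidermal envelope, is at chr1:153029009-153029208 on the minus strand in its coding exon, and held 2 CpGs although its GC content was 61%.
GRIK3: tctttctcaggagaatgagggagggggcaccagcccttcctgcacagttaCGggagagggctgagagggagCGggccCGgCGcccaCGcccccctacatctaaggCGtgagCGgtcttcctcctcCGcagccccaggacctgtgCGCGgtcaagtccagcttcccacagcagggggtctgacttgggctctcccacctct
WNT3A: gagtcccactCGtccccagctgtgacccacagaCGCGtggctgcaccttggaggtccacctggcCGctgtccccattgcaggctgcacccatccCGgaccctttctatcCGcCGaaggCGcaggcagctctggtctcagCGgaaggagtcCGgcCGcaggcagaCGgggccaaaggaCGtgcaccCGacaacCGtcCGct
OR1N1: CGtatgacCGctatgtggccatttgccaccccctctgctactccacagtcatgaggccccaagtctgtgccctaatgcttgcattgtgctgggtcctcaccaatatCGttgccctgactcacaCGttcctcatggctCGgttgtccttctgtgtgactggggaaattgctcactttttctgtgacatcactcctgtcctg
SPRR2A: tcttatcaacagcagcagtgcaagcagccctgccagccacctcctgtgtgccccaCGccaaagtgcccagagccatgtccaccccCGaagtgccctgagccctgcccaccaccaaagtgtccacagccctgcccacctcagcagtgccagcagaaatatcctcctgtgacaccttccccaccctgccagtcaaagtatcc

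For H3K9me3 the same windows are shown for a zinc finger gene, a protocadherin and a germline gene. ZNF678, a C2H2 zinc finger gene, is at chr1:227750732-227750931 on the plus strand, upstream of the gene, and held 7 CpGs at 60% GC. PCDHA1, a cell surface protein of the clustered protocadherins, is at chr5:140165900-140166099 on the plus strand in its coding exon, with 13 CpGs. BOLL, an RNA-binding protein of meiosis, is at chr2:198650497-198650696 on the minus strand in an intron, with 14 CpGs at 67.5% GC.
ZNF678: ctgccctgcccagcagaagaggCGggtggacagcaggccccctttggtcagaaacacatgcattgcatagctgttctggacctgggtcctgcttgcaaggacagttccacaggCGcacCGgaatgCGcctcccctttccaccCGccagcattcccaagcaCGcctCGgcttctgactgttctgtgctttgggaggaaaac
PCDHA1: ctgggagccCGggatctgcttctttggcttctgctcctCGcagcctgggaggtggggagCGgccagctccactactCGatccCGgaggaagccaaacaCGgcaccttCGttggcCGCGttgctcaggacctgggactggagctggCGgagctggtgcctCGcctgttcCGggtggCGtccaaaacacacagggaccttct
BOLL: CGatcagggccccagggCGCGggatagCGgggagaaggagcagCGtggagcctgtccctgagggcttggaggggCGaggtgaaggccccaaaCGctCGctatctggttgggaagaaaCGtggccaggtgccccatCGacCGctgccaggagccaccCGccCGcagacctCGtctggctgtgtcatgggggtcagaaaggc

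By −log10 q the 8 leading genes with H3K27me3 promoters in NC were KIAA1217, SYT6, SLC32A1, WNT3A, ANKRD34C, WNT7A, DGKI and CACNA1G. SYT6 is a synaptotagmin of vesicle fusion, SLC32A1 the vesicular transporter of GABA, DGKI a diacylglycerol kinase and CACNA1G a T-type calcium channel. All 8 had start sites of high CpG content. Fold enrichment is given as MACS2 writes it, fragments plus 1 over local input plus 1 at the summit, with an exact Poisson interval of the fragments. KIAA1217 had a fold enrichment of 10.1 (7.95 to 12.5, 76 fragments) in NC, 7.99 (6.44 to 9.82) in ΔLINC00641 and 6.02 (4.65 to 7.67) in ΔSETD5-AS1, and the interval of ΔSETD5-AS1 did not reach that of NC. SLC32A1 had 8.64 (6.74 to 10.9) in NC, 9.89 (7.93 to 12.2) in ΔLINC00641 and 5.74 (4.44 to 7.3) in ΔSETD5-AS1, with overlapping intervals between each knockdown and NC, although the ΔSETD5-AS1 summit lay upstream of the start site, at -507 bp, and the NC summit downstream at 451 bp. WNT3A had 6.54 (5.19 to 8.14) in NC, 7.72 (6.15 to 9.57) in ΔLINC00641 and 3.82 (2.98 to 4.84) in ΔSETD5-AS1, the lowest of the 3. These genes were chosen by their NC value, so a lower value in another list is a description and no test.

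**Figure D1:**
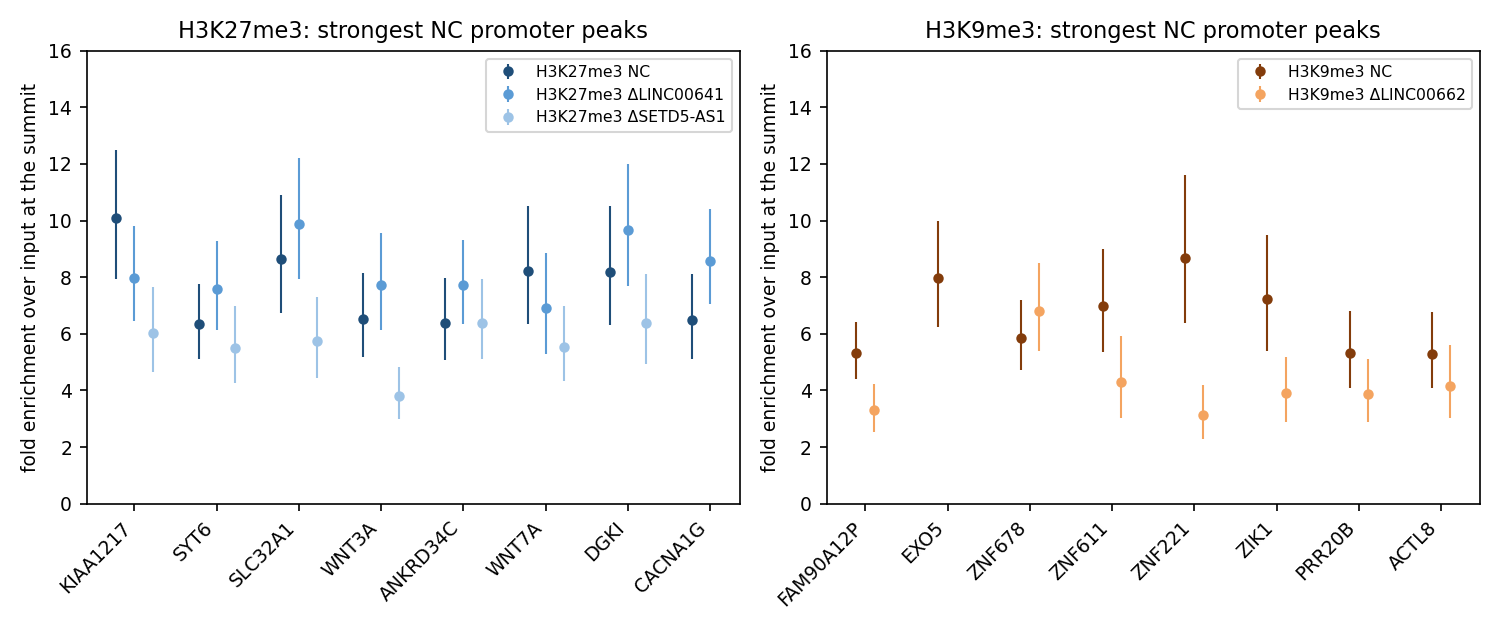
Fold enrichment over input at the summit of the strongest promoter peak of each gene, for the 8 genes with the largest −log10 q in NC for H3K27me3 (left) and H3K9me3 (right). Points are pooled lists, bars are exact 95% Poisson intervals of the fragments, and a missing point means no summit within 1 kb, as for CACNA1G in ΔSETD5-AS1 and EXO5 in ΔLINC00662.

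The 8 leading genes with H3K9me3 promoters in NC were FAM90A12P, EXO5, ZNF678, ZNF611, ZNF221, ZIK1, PRR20B and ACTL8. EXO5 is a DNA exonuclease, ZIK1 another zinc finger gene and ACTL8 an actin-like gene. FAM90A12P and PRR20B belong to families of near-identical copies among which fragments could be divided, so their values are uncertain. ZNF221 had a fold enrichment of 8.69 (6.39 to 11.6, 45 fragments) in NC and 3.14 (2.28 to 4.21, 42 fragments) in ΔLINC00662, where the input at the summit was 3.63-fold the genome-wide level against 1 in NC and the strongest summit lay on the other side of the start site. ZNF678 had 5.86 (4.72 to 7.19) in NC and 6.82 (5.4 to 8.5) in ΔLINC00662, with overlapping intervals.

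The gene groups with the largest shares differed between the marks. The 13 groups were assembled from gene symbols, and each is described by the share of its members with a promoter peak beside the share of all genes, which was 5.7% for H3K27me3 and 4.36% for H3K9me3 in NC. Ion channels and neurotransmitter receptors, the proteins of membrane excitability, had H3K27me3 promoter peaks at 83 of 274 genes in NC, or 30.3% (25.2 to 36%), and H3K9me3 peaks at 12. CACNA1G and GRIK3 led this group, and GRIK3 had a fold enrichment of 7.39 (5.68 to 9.46) in NC. Within it 26 of 92 potassium channel genes (KCN), 12 of 25 glutamate receptor genes and 8 of 16 GABA receptor genes had H3K27me3, against 2 of 14 sodium channel genes (SCN). Secreted developmental signals had H3K27me3 at 28 of 139 genes, 20.1% (14.3 to 27.6%), and H3K9me3 at 1. WNT genes made up 9 of these 28, out of 19 in the group, whereas 3 of 20 FGF and 2 of 20 BMP and GDF genes had a peak.

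Olfactory and taste receptors, which are expressed in sensory epithelia, had H3K27me3 at 92 of 440 genes in NC, 20.9% (17.4 to 25%), and H3K9me3 at 14. Their peaks were weak: the median −log10 q was 3.21 against 5.4 over all H3K27me3 promoter peaks, and peaks of −log10 q 5 or more left a share of 4.32%, against 3.25% of all genes at that threshold. OR1N1 led with a fold enrichment of 5.77 (3.87 to 8.3) from 27 fragments. Keratins and epidermal barrier genes had H3K27me3 at 50 of 239 genes, 20.9% (16.2 to 26.5%), and H3K9me3 at 17, 7.11% (4.49 to 11.1%). Inside it, genes of the cornified envelope had the largest shares, with 9 of 11 SPRR and 12 of 19 LCE genes, beside 16 of 94 keratin-associated proteins (KRTAP) and 3 of 55 keratins (KRT). SPRR2A had 8.42 (6.13 to 11.3) in NC, 6.27 (4.27 to 8.92) in ΔLINC00641 and 4.05 (2.58 to 6.09) in ΔSETD5-AS1. These were different summits, at 879 and 983 bp downstream in the first 2 lists and at -57 bp in ΔSETD5-AS1. Genes of these families are close copies of each other in places, and no filter on mapping quality is given in the sources used here.

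Developmental transcription factors had smaller H3K27me3 shares. Homeobox genes, which encode transcription factors, had H3K27me3 at 11 of 168, 6.55% (3.7 to 11.3%), an interval that includes the share of all genes. None of the 39 HOX genes had a promoter peak in any of the 5 lists, and NKX1-2 and GSX1 led the group. The rule counts only summits within 1 kb, so a start site inside a wide marked domain can be missed. SORCS3, for example, had no promoter peak in NC although 85.7% of the bases within 10 kb were under H3K27me3 peaks. Coverage around HOX genes is not given here, so absence of the mark from them cannot be read from this. Other developmental transcription factors had 23 of 183, 12.6% (8.52 to 18.2%), and H3K9me3 at 16, 8.74% (5.45 to 13.7%), both above the shares of all genes. Solute carriers had 24 of 334, 7.19% (4.88 to 10.5%), and immune ligands and receptors 20 of 331, 6.04% (3.95 to 9.15%), close to the share of all genes. SIGLEC5 and SIGLEC14, sialic acid-binding receptors of leukocytes, led the immune group. Genes of the ribosome, proteasome and respiratory chain, a group mostly of housekeeping genes, had H3K27me3 at 0 of 299 (upper limit 1.27%). H3K9me3 was called at 5, among them RPL10L and COX16. Membership came from symbols, so use of these members in every cell was not checked. The COX16 start site, as for all genes, was the 5′ end of the whole gene annotation. In the knockdown lists H3K27me3 was called at 1 gene of this group each.

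The largest H3K9me3 shares were those of protocadherins and zinc finger genes, which made up 4.89% and 22.6% of the called genes, while 490 of the 839 called genes (58.4%) were in none of the 13 groups. Clustered protocadherins, cell surface proteins encoded in tandem arrays on chromosome 5, had H3K9me3 at 41 of 53 genes, 77.4% (64.5 to 86.5%), in NC and at 41 in ΔLINC00662, of which 34 were common to both lists. By array these were 9 of 15 PCDHA, 14 of 16 PCDHB and 18 of 22 PCDHG genes in NC. PCDHA1 and PCDHGB5 led, each with a fold enrichment of 4.21 (3.13 to 5.53). C2H2 zinc finger genes, many of them KRAB repressors, had H3K9me3 at 190 of 546 genes, 34.8% (30.9 to 38.9%), and H3K27me3 at 8. On chromosome 19 this was 141 of 260 genes (54.2%), and on the other autosomes 49 of 286 (17.1%). Histone genes had H3K9me3 at 13 of 81, 16% (9.63 to 25.5%), led by H2AC8 and H2AC16, and H3K27me3 at 0 in each of its 3 lists. The annotation used lacks some histone genes of the chromosome 6 cluster, so the group may be incomplete. Peaks of −log10 q 5 or more left a share of 3.7%, against 2.09% of all genes at that threshold, and the median −log10 q was 4.37 against 4.62 over all H3K9me3 promoter peaks. Germline and meiosis genes had H3K9me3 at 15 of 148, 10.1% (6.24 to 16%), led by BOLL and TEX30, and H3K27me3 at 2. Around the start sites of marked protocadherins a median of 39.3% of the bases within 10 kb were under H3K9me3 peaks, and 29.8% for zinc finger genes, against 9.13% for all marked genes.

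**Figure D2:**
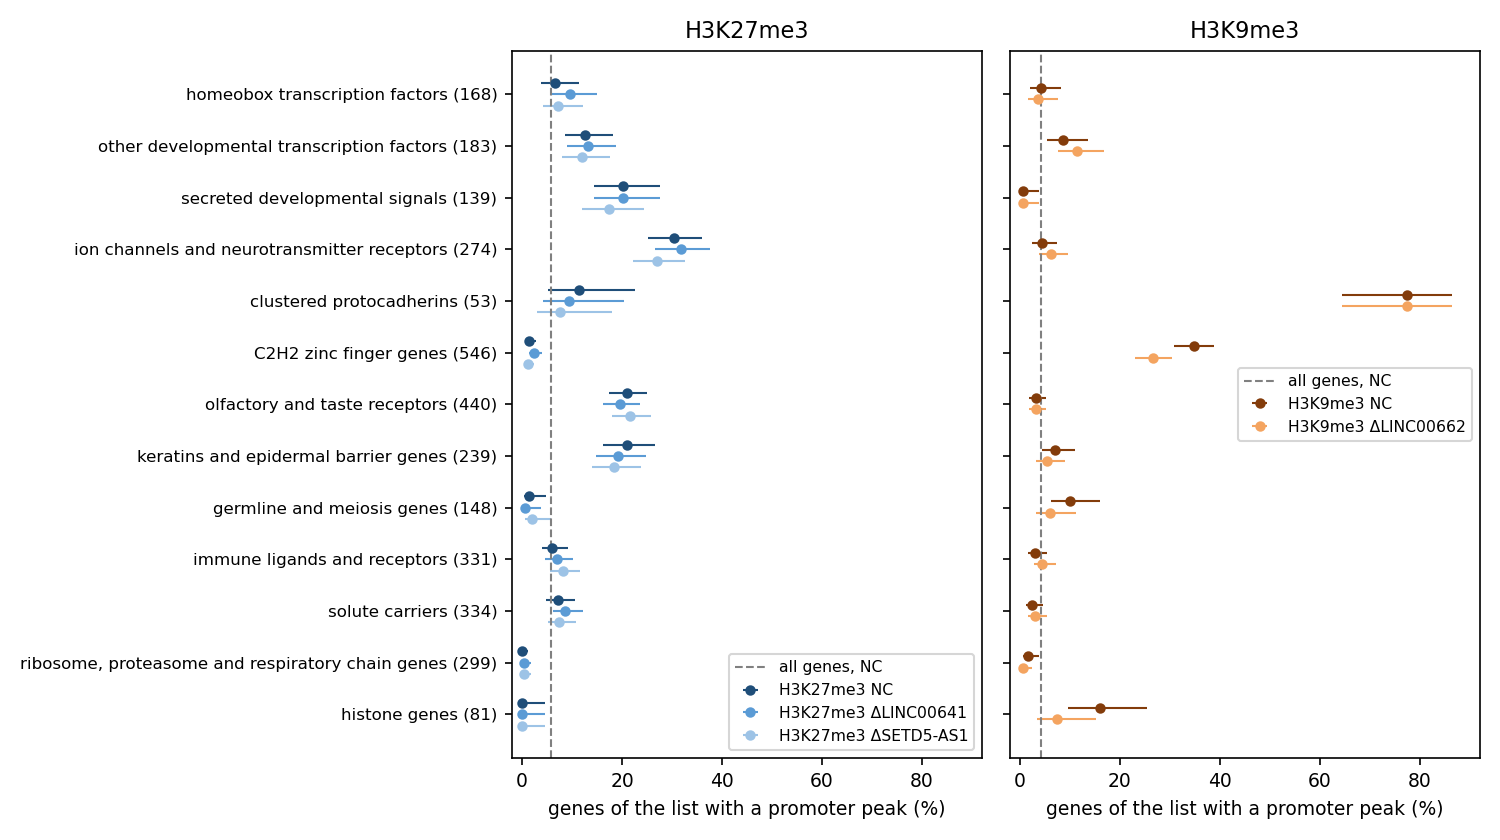
Share of each gene group (size in brackets) with a promoter peak of H3K27me3 (left, 3 lists) and H3K9me3 (right, 2 lists), with 95% Wilson intervals and a dashed line at the share of all autosomal protein-coding genes in NC. In NC whole intervals lie right of the line for channels, signals, olfactory receptors, epidermal genes and other developmental transcription factors for H3K27me3, and for protocadherins, zinc finger, histone, germline, epidermal and other developmental transcription factor genes for H3K9me3.

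Promoter peaks had a median GC content of 53.6% for H3K27me3 and 51.6% for H3K9me3 in NC, against 45.1% and 47.4% for other autosomal peaks. For summits within 500 bp of the start site the order of the marks turned, at 53% for H3K27me3 and 53.4% for H3K9me3. The bases within 500 bp of the start site had a median GC content of 59.6% for genes with H3K27me3, 56.1% for genes with H3K9me3 and 59.3% for all genes. In the decile of genes with the highest GC (71.3 to 84.5%) H3K27me3 was called at 184 of 1923 genes, 9.57% (8.33 to 11%), and H3K9me3 at 31, 1.61% (1.14 to 2.28%). In the middle decile (56.6 to 59.3%) the shares were 2.96% (2.29 to 3.82%) and 5.77% (4.82 to 6.91%). In the lowest decile, under 42.8% GC, they were 6.86% and 2.86%. H3K27me3 was called most in the highest decile and in the 1 next to the lowest (8.89%), and H3K9me3 in the latter, at 8.01%.

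**Figure D3:**
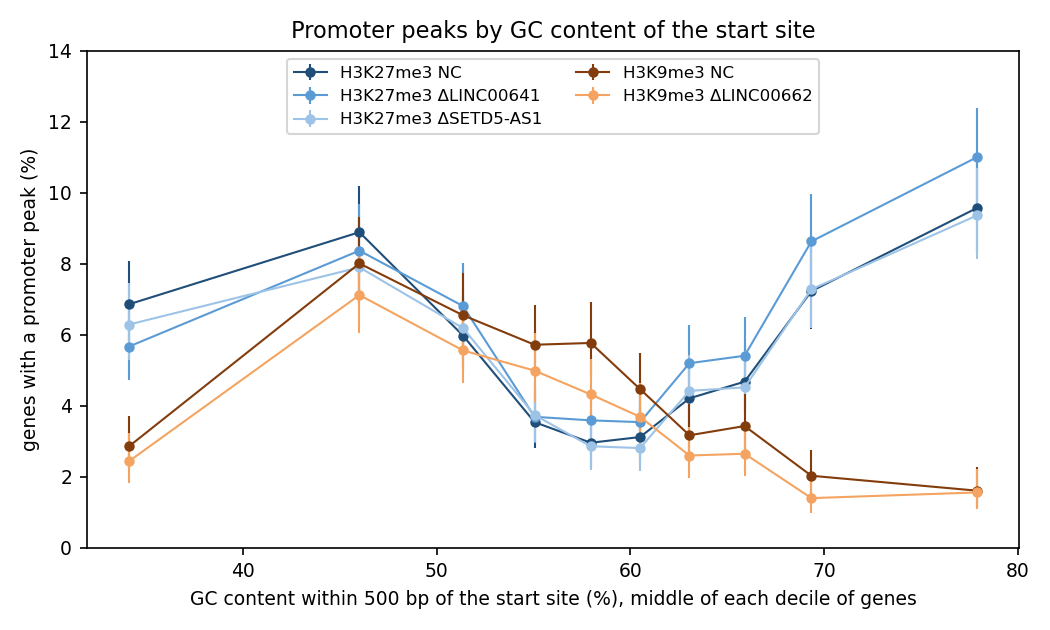
Percentage of genes with a promoter peak in each decile of the 19229 genes ordered by GC content within 500 bp of the start site, for the 5 lists, with 95% Wilson intervals. The H3K27me3 lines fall and rise again toward 9.57% in NC, while the H3K9me3 lines peak next to the lowest decile and fall to 1.61% in NC.

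By CpG class, a promoter was high when a 500 bp window had an observed over expected CpG of at least 0.75 and GC of at least 55%, and low when no window passed 0.48. H3K27me3 was called at 5.19% (4.8 to 5.62%) of high, 6% (5.2 to 6.92%) of intermediate and 6.64% (5.99 to 7.36%) of low promoters in NC. H3K9me3 was called at 4.02%, 8.8% (7.83 to 9.88%) and 2.57% (2.17 to 3.04%), most in the intermediate class. Stronger H3K27me3 peaks were more often at high-CpG promoters, whose share was 52.9% over all called genes and 65.4% among those with −log10 q of 5 or more. Of all genes 58.1% had high-CpG promoters. In the 300 bases from 250 before to 50 after the start site, on either strand, TATAAA was found at 16.1% of genes with H3K27me3, 12.2% with H3K9me3 and 11% of all genes. CCAAT was found at 31.1%, 45.3% and 35.5%, and GGGCGG at 47.9%, 45.4% and 52.4%. These are letter matches and not sites.

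Summits were spread over the window. In all 18.8% of H3K27me3 and 17.8% of H3K9me3 summits in NC lay within 200 bp of it. H3K27me3 summits lay downstream in 55.7% (53 to 58.4%) of peak and gene pairs and H3K9me3 summits in 47.1% (43.9 to 50.3%). At high-CpG promoters H3K9me3 summits lay downstream in 36.7% (32.6 to 41%), with a median position of 399 bp upstream (-399), and at intermediate ones in 59.7% (53.9 to 65.1%). Protocadherin summits lay downstream in 87.5% of pairs and zinc finger summits in 41.2%. The edge of the window was not a natural break: 103 H3K27me3 pairs in NC lay in the last 100 bp inside it and 110 in the next 100 bp outside, and 85 and 88 for H3K9me3.

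**Figure D4:**
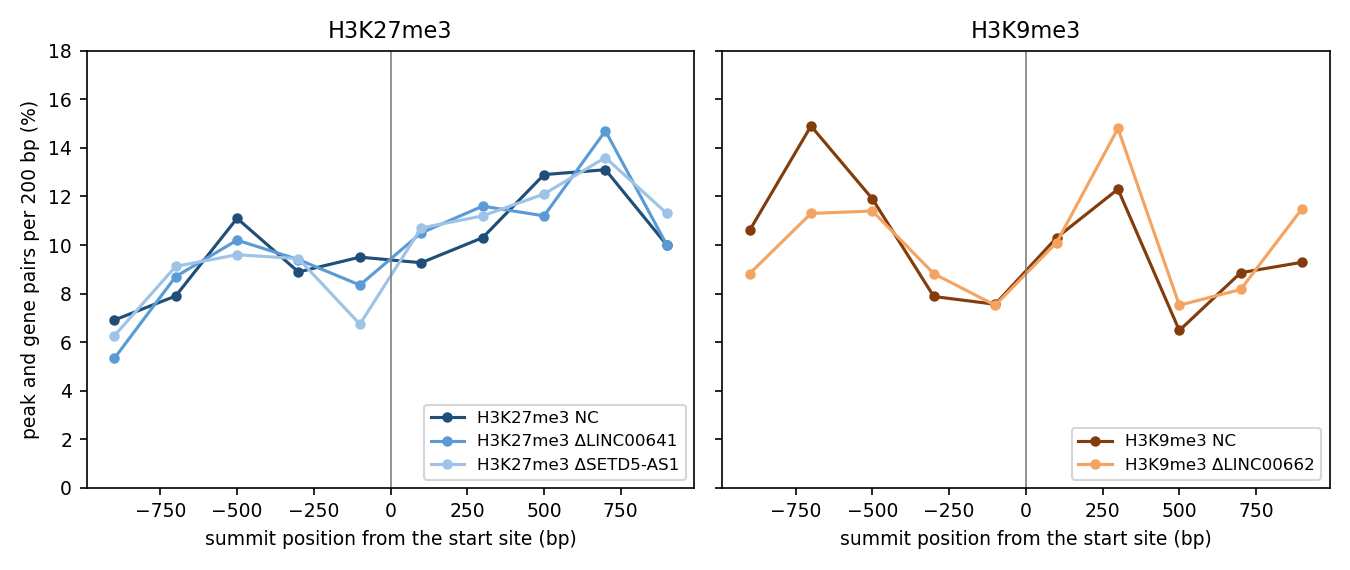
Percentage of peak and gene pairs in each 200 bp of distance from the start site, negative upstream, for the 3 H3K27me3 lists (left) and the 2 H3K9me3 lists (right). No list peaks at the start site, and H3K27me3 in NC is highest 600 to 800 bp downstream, at 13.1%.

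Promoter peaks were wider than other autosomal peaks, with a median of 731 against 514 bp for H3K27me3 and 585 against 476 bp for H3K9me3 in NC. The median fold enrichment was 3.48 against 3.3 for H3K27me3 and 2.9 against 3.21 for H3K9me3, so promoters were lower by this ratio for H3K9me3. By other measures H3K9me3 promoter peaks were higher, with a median of 30 against 22 fragments and a −log10 q of 4.62 against 4.3. Input at the summit was 1.81 times the genome-wide level at H3K27me3 promoters against 1.07 elsewhere, and 2.25 against 1.32 for H3K9me3. The part of this input difference in the fold enrichment was not tested. Over 5 times that level lay 9 of the H3K27me3 and 56 of the H3K9me3 promoter peaks in NC.

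In ΔLINC00641, gene numbers with an H3K27me3 promoter peak were 1.08 times those of NC (0.999 to 1.18), although the list held 0.798 times as many autosomal peaks. This interval, like that for ΔSETD5-AS1 below, takes both gene counts as independent. The lists share most of their genes, so the pairing is ignored. Taking equal numbers of the strongest autosomal peaks from both lists gave 1.22. Of the 1097 NC genes 845 were called again, 77% (74.4 to 79.4%), and 252 were not, while 345 genes were called in the knockdown without NC. NC promoter peaks overlapped a knockdown peak, by at least 1 bp, in 77.2% (74.8 to 79.4%) of cases against 51.2% for other autosomal peaks. Over all autosomal peaks 48.4% of NC peaks and 34.3% of knockdown peaks had no partner in the other list. Weighting the other peaks to the −log10 q and GC content of the promoters gave 70%. High-CpG promoters numbered 580 in NC and 677 in the knockdown, and 85.9% (82.8 to 88.5%) of the NC ones were called again, against 62.5% (57.2 to 67.4%) of low-CpG promoters. Peak strength was not matched between the CpG classes. At 750 promoter peaks with 1 partner each the median log2 ratio of fold enrichment was 0.11 (quartiles -0.16 and 0.39), against 0.0018 at other peaks.

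In ΔSETD5-AS1, gene numbers were 0.971 times those of NC (0.892 to 1.06) with 0.935 times the autosomal peaks, and 783 of 1097 NC genes were called again, 71.4% (68.6 to 74%). The other 314 NC genes were not called again, and 282 genes were called without NC. The overlap of NC promoter peaks was 73.7% (71.2 to 76%) against 54.6% for other peaks, or 70.2% when these were weighted to the promoters' strength and GC. Over all autosomal peaks 45% of NC and 39.5% of knockdown peaks had no partner. Ratios of gene numbers were alike over CpG classes, at 0.971, 0.983 and 0.965 for high, intermediate and low. The shares of NC genes called again were 76.7% (73.1 to 80%), 73.3% (66.3 to 79.3%) and 61.3% (56 to 66.3%), lowest at low-CpG promoters as in ΔLINC00641. Peak strength was again not matched between the classes. The median log2 ratio at 696 paired promoter peaks was -0.11 (quartiles -0.38 and 0.17), against -0.075 at other peaks. Taking equal numbers of the strongest autosomal peaks from both lists turned the ratio of gene numbers to 1.01. Both H3K27me3 comparisons share the NC list. Of 1564 genes with H3K27me3 in any list, 697 (44.6%) were called in all 3. These had a median best −log10 q of 11.6 against 3.21 for the 473 genes called in 1 list. The best value is the largest over the lists that called a gene, so genes in more lists had more values to draw on. The part of this in the gap was not tested.

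In ΔLINC00662, gene numbers with an H3K9me3 promoter peak were 0.833 times those of NC, 699 against 839, with 0.723 times the autosomal peaks. Taking equal numbers of the strongest peaks turned this ratio to 1.07, so the direction depended on the number of peaks taken. Of the NC genes 439 were called again, 52.3% (48.9 to 55.7%), and 260 were called without NC. NC promoter peaks overlapped a knockdown peak in 55.3% (52 to 58.6%) of cases, against 37.8% for other peaks and 47.7% when these were weighted to strength and GC. Over all autosomal peaks 62% of NC and 44.7% of knockdown peaks had no partner. High-CpG promoters numbered 449 in NC and 341 in the knockdown (ratio 0.759), and intermediate ones 258 and 234 (0.907). Low ones numbered 132 and 124 (0.939). Of the NC genes in these classes 50.6%, 61.2% and 40.9% were called again, without matching for peak strength. Zinc finger genes numbered 190 and 145, with 129 called in both, histone genes 13 and 6, and protocadherins 41 and 41. The ratio of gene numbers was below 1 on 18 of the 20 autosomes with at least 10 NC genes. In ΔLINC00641 it was below 1 on 5 of 21 such autosomes, and in ΔSETD5-AS1 on 9 of 21. Chromosomes of 1 merged list are not replicates, and a shorter peak list can lower the ratio on each of them. In ΔLINC00662 the median log2 ratio at 387 paired promoter peaks was 0.048, against 0.026 at other peaks.

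**Figure D5:**
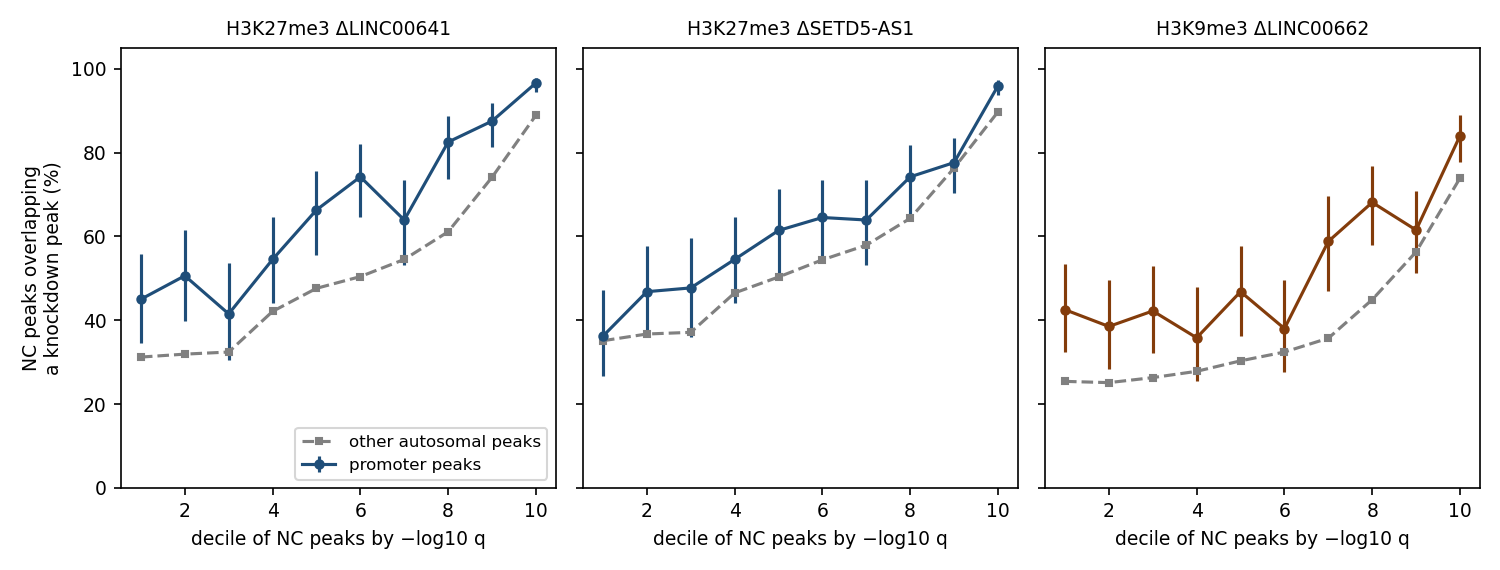
Percentage of NC autosomal peaks that overlap a knockdown peak by at least 1 bp, in deciles of NC peaks ordered by −log10 q, for promoter peaks (points with 95% Wilson intervals) and other autosomal peaks (grey squares). In the strongest decile 96.6%, 95.9% and 84% of promoter peaks overlapped in ΔLINC00641, ΔSETD5-AS1 and ΔLINC00662. Peak width was not matched.

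At most of the genes that left or joined a list with the strongest peaks, the other list held an overlapping peak whose summit lay outside the window. Of the 24 named cases, 4 lost and 4 new by −log10 q in each comparison, 21 had an overlapping peak in the other list. Its summit lay beyond 1 kb by the rule, since a nearer summit would have kept the gene in that list. The cases were chosen for strength, and the strongest NC peaks overlapped most often. PDGFA, a growth factor of mesenchymal cells, was absent from both H3K27me3 knockdown lists by the rule, yet overlapped peaks of fold enrichment 10.5 in ΔLINC00641 and 4.09 in ΔSETD5-AS1, with summits at -1047 and -1093 bp. It had 6.78 (5.28 to 8.58) in NC. PGR, the progesterone receptor, and EFNA3, an ephrin ligand, were lost in both in the same manner, and UBE2QL1 in ΔLINC00641 and CACNA1G in ΔSETD5-AS1. SHH, the Hedgehog ligand, was new in ΔLINC00641 with a fold enrichment of 7.89, while NC had an overlapping peak of 7.26 with its summit at 1693 bp. SORCS3, a sorting receptor of neurons, was new in both knockdowns, and CFAP99 and PLPPR1 in ΔLINC00641, and NXPH1, TMEM132B and CERKL in ΔSETD5-AS1, each with an overlapping NC peak.

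For H3K9me3, TAF7, a subunit of the general transcription factor TFIID, and the zinc finger gene ZNF16 had no overlapping peak in ΔLINC00662, and CTAGE4 had none in NC. TAF7 had a fold enrichment of 5.33 (4.09 to 6.83) in NC, with 10 peaks of ΔLINC00662 within 10 kb of its start site. EXO5, ZNF776, ZNF724, ZFP69 and ZNF594 had overlapping peaks with summits beyond 1 kb. Over all genes that left a list, 21.8% (17.2 to 27.3%) in ΔLINC00641, 24.8% (20.4 to 29.9%) in ΔSETD5-AS1 and 13% (10.1 to 16.7%) in ΔLINC00662 still had an overlapping peak. Among all genes that joined, 23.2%, 23% and 16.9% had an overlapping peak in NC. The median −log10 q in NC of lost genes without an overlapping peak was 3.11, 3.17 and 3.82, against 6.88, 7.23 and 6.07 for genes called in both lists. TAF7 and ZNF16 stood far above that median, at 22.2 and 15.3, which follows from their choice as lost genes with the largest −log10 q.

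Both marks were called at 107 genes in NC. Of the H3K27me3 genes 9.75% (8.14 to 11.7%) also had H3K9me3, against 4.36% of all genes. Of the H3K9me3 genes 12.8% (10.7 to 15.2%) also had H3K27me3, against 5.7% of all genes. Of H3K27me3 promoter peaks 9.87% overlapped an H3K9me3 peak, against 9.93% of other autosomal H3K27me3 peaks. The 6 leading genes were ARPP21, PRAMEF6, SPRR2G, PRAMEF10, ENSG00000286098 and SPHKAP. ARPP21, a cAMP-regulated phosphoprotein of neurons, had a fold enrichment of 5.02 (3.59 to 6.84) for H3K27me3 and 4.94 (3.43 to 6.91) for H3K9me3. PRAMEF6 and PRAMEF10 are members of a cluster of close copies, so their values are uncertain. Intermediate CpG promoters made up 41.1% (32.3 to 50.6%) of the 107, against 15.2% of all genes, and 20 of them (18.7%, 12.4 to 27.1%) lay on chromosome 4, which holds 3.96% of all genes, 52 of the H3K27me3 genes and 50 of the H3K9me3 genes. At 17 of the 107 genes every H3K9me3 peak exceeded an input of 5-fold the genome-wide level. Merged cells cannot tell both marks on 1 chromosome from marks on different copies.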

How the data were processed

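ChIP-seq of H3K27me3 and H3K9me3 in HEK293T cells gave 5 deposited peak lists, 1 per ChIP group, from 30 libraries in 10 groups of 3 replicates. Per the labels and methods, adapters were removed by Cutadapt 3.3, Bowtie2 2.4.2 aligned to hg19, GATK removed duplicates, replicates were merged, and the authors called peaks over input by MACS2 2.2.7.1. FastQC 0.11.8 is also named. The deposited lists give a fold enrichment (a ratio over local input), −log10 p-values, a score that is −log10 of the q-value, and peak and summit positions. Library depths were not used here. Groups came from the labels, and 0 columns of other samples were left out.

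The members, gene groups and comparisons were chosen with earlier results of these data known. Start sites were those of GENCODE 44 mapped to GRCh37, the same assembly as hg19. Fragments and local input at each summit were recovered from fold enrichment and −log10 p by solving MACS2's formulas with a pseudocount of 1; this gave whole fragments for 100% of peaks, with medians of 18 to 22 per summit and a lowest of 11, which sets the precision, and genome-wide levels of 3.5 to 4.43. The steps were tested on simulated data. Python 3.11.15 with pandas 2.3.3, scipy 1.17.1, pysam 0.24.0 and matplotlib 3.10.9 was used. Intervals are Wilson for shares and exact Poisson for fragments, both at 95%, and cover counting error only.

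Named genes were, among peaks with local input up to 5 times the genome-wide level, the 8 strongest by −log10 q per mark in NC, the 4 strongest lost and 4 new per comparison, the 6 with both marks by their smaller −log10 q, and the 2 strongest of each gene group in the mark with the larger share. Not every gene this rule names is reported here. Families inside groups were named after their values were seen. Alternatives were other windows, start sites, thresholds, input limits, chromosomes and list lengths.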

Additional observations from a re-analysis of the deposited data

Results flagged for a closer look

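Gene numbers with a promoter peak were 1.08 times NC (0.999 to 1.18) in ΔLINC00641 and 0.971 times NC (0.892 to 1.06) in ΔSETD5-AS1. They lay on opposite sides of the NC list they share. Both intervals take the gene counts as independent although the lists share most genes, so they do not measure the paired change. In ΔLINC00641 345 genes were called without NC and 252 NC genes were not called again. The counts in ΔSETD5-AS1 were 282 and 314. With equal numbers of the strongest autosomal peaks both ratios were above 1, at 1.22 and 1.01. The median log2 ratio of fold enrichment at paired promoter peaks was 0.11 in ΔLINC00641 and -0.11 in ΔSETD5-AS1, against 0.0018 and -0.075 at other autosomal peaks. The difference was not tested, since each group is 1 merged list.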

How the results depend on the processing

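No paired analysis was possible because each list pools its 3 replicates, and for the same reason no replicate could be left out. Of 122 values under other settings 70 stayed within their interval or within 1.5 times, and 2 changed direction: when both lists were limited to equal numbers of strong peaks, the ratio of gene numbers became 1.01 in ΔSETD5-AS1 and 1.07 in ΔLINC00662. That setting gave 1.22 in ΔLINC00641, and a −log10 q of at least 5 gave 1.21 there and 0.667 in ΔLINC00662. Genes with a promoter peak, in the order H3K27me3 NC, ΔLINC00641, ΔSETD5-AS1, H3K9me3 NC and ΔLINC00662, numbered 634, 695, 590, 436 and 382 within 500 bp, and 624, 756, 579, 402 and 268 with −log10 q of at least 5. Within 2 kb H3K9me3 numbered 1301 and 1085. Both marks met at 46 genes within 500 bp, 194 within 2 kb, 187 with start sites of any transcript and 29 with −log10 q of at least 5.

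The share of NC genes called again in ΔLINC00641 was 62.5% within 500 bp, 82.3% within 2 kb, 80.4% with any transcript, 82.7% with any base of the peak and 80.7% with equal numbers. In ΔSETD5-AS1 it was 51.3%, 79.1%, 75.7% and 78.5% for the first 4 of these and 67.5% with −log10 q of at least 5. In ΔLINC00662 it was 47% within 500 bp, 59.5% within 2 kb, 38.3% with −log10 q of at least 5, 56.8% with any base, 47.8% without chromosome 19 and 56.2% with equal numbers. Median GC of H3K27me3 promoter peaks was 53% within 500 bp, 52.3% within 2 kb, 55.9% with −log10 q of at least 5 and 59.6% around start sites. For H3K9me3 it was 53.4%, 50.3%, 51% with any transcript, 51% with any base and 56.1% around start sites, so within 500 bp H3K9me3 was the higher of the marks. High-CpG shares for H3K27me3 were 46.1% within 500 bp, 49.3% with any transcript, 65.4% with −log10 q of at least 5 and 61.6% by the looser CpG definition (0.6 and 50%), and for H3K9me3 43.8% within 500 bp and 70.2% by the looser definition. Of all genes 58.1% were high by the first definition, and their share by the looser 1 is not given. The cause of the changes between settings was not tested. Alternatives for gene group shares were chosen after seeing the data. Within 500 bp the NC shares of channels, signals, olfactory receptors and epidermal genes for H3K27me3 were 12.4%, 11.5%, 13.4% and 14.6%, against 3.3% of all genes, and of zinc finger, protocadherin, histone and germline genes for H3K9me3 17.4%, 66%, 9.88% and 6.08%, against 2.27% of all genes.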
